A study of Mus musculus with 20 samples.

Results

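The adipocyte genes examined here were *Adipoq*, *Plin1*, *Cidec*, *Fabp4*, *Pparg*, *Cfd*, *Lep*, *Retn*, *Car3* and *Ces1d*, 10 of the 54532 genes in the deposited count table. They were read out in RNA-seq libraries of temporomandibular joint (TMJ) condylar heads taken with a portion of the subchondral bone from adult Acan-Cre;*Loxl2* fl/fl mice. The Cre recombinase is driven by the aggrecan promoter and is active only in the presence of tamoxifen, so that *Loxl2*, which encodes a collagen and elastin crosslinking enzyme, is to be deleted in aggrecan-expressing cells. All animals carried the Cre and the floxed alleles. The 8 control animals received vehicle and the 12 animals labelled knockout received tamoxifen, given as daily injections and then monthly maintenance, and drug and deletion cannot be told apart in any comparison below. The genes were chosen by their known place in fat cells, and *Ces1d* was selected on its measured fall between these same groups of libraries. The question was whether it followed the fat signal of the same libraries. The differences of the 10 genes between the groups are therefore given as a description, and nothing is read from the number of them past a threshold in any fit.

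Adipocytes store triacylglycerol in a lipid droplet and release it as fatty acids. The nuclear receptor PPARγ, encoded by *Pparg*, directs fat cell differentiation together with the CCAAT/enhancer binding proteins. *Plin1* encodes perilipin 1, which coats the droplet and controls the access of lipases, and *Cidec* encodes a droplet fusion protein. *Fabp4* encodes a fatty acid carrier that capillary endothelium and macrophages also produce. *Adipoq*, *Lep*, *Retn* and *Cfd* encode the secreted proteins adiponectin, leptin, resistin and adipsin. *Car3* encodes carbonic anhydrase 3, abundant in both fat cells and skeletal muscle fibres, and *Ces1d* encodes a carboxylesterase that hydrolyses triacylglycerol and is known from fat and liver. In and around the TMJ, fat cells occur in marrow and in the soft tissue beside the condyle.

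Library totals ran from 11153820 to 27045668 counts, so a gene at 3 counts is at most 0.246 CPM (counts scaled to a common library size). *Loxl2* itself was at 64.5 CPM ± 30.9 (SD, n = 8) in control against 101 CPM ± 26.9 (SD, n = 12) in the knockout-labelled libraries, a log2 difference of 0.64 (SE 0.28, edgeR adjusted p = 0.101). The count covers the whole gene and not the floxed exons alone, so it does not show a deletion. The authors reported less LOXL2 protein in the knockout mice by immunohistochemistry, which these counts cannot check. The second group is called the knockout-labelled libraries. Of 15984 genes past the filter on low counts, 3673 passed an adjusted p of 0.05 in edgeR's quasi-likelihood test, 1918 higher and 1755 lower. Scaling by library totals alone gave 2188 higher and 849 lower and moved the median log2 fold change of all genes from -0.02 to 0.12. Bulk RNA cannot tell fewer cells of a type from less RNA per cell. Other tissues moved with the groups. All 7 osteoclast markers and 6 of 7 macrophage markers were higher, 4 of 7 osteoblast and osteocyte markers were higher, and 5 of 11 fast muscle markers were lower in the knockout-labelled libraries, with summed fast muscle levels of 43910 to 192000 CPM in control and 32680 to 87180 CPM in the other group. None of these lists had a gene at 0 throughout a group. Their part in the results below was not tested, except where a value with the fast muscle list as a covariate is given.

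The defining adipocyte genes had reads in every library but at low levels, down to 2 counts of *Cidec* in knockout replicate 10, and they varied far more among libraries than between the groups. *Adipoq* ran from 1.19 CPM through a median of 2.86 to 16.4 CPM in control and from 0.284 through 2.18 to 20.7 CPM in the knockout-labelled libraries. *Plin1* ran from 1.07 through 2.33 to 23.8 CPM in control and from 0.921 through 2.49 to 31.6 CPM in the other group. *Cidec* ran from 1.13 through 2.27 to 14.0 CPM in control and from 0.164 through 1.85 to 23.2 CPM in the other group. Control replicate 1, knockout replicate 1 and knockout replicate 5 were the highest 3 libraries for all 3 genes, and the groups overlapped over most of their range. These 3 of 20 libraries held 58.1% of the summed CPM of *Adipoq*, 60.2% of *Plin1* and 58.1% of *Cidec*.

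The group means of these genes lay close together. *Adipoq* averaged 4.64 CPM ± 5.07 (SD, n = 8) in control against 4.83 CPM ± 6.93 (SD, n = 12) in the knockout-labelled libraries (log2 fold change 0.05, SE 0.70). The log2 fold change was 0.07 (SE 0.72) for *Plin1* and 0.21 (SE 0.76) for *Cidec*. A single library set the sign of each. Without control replicate 1 the values were 0.71, 0.92 and 0.84, and without knockout replicate 5 they were -0.46, -0.61 and -0.43. A fat score, defined as the mean log2 CPM of *Adipoq*, *Plin1* and *Cidec*, was 1.70 ± 1.27 (SD, n = 8) in control against 1.29 ± 1.79 (SD, n = 12) in the other group, a difference of -0.41 that is smaller than the spread within either group.

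The secreted products split by abundance. *Cfd*, the adipsin gene, ran from 4.29 CPM through a median of 11.8 to 92.0 CPM in control and from 2.29 through 12.7 to 182 CPM in the knockout-labelled libraries. Its highest 3 libraries were again control replicate 1, knockout replicate 1 and knockout replicate 5, with 60.3% of the summed CPM. The log2 fold change was 0.50 (SE 0.75), or -0.35 without knockout replicate 5. *Retn* ran from 0.0766 through 1.32 to 9.61 CPM in control and from 0 through 0.545 to 9.40 CPM in the other group (log2 fold change -0.58, SE 0.82). Omitting control replicate 1 turned that value to 0.36, and omitting knockout replicate 5 took it to -1.52. Control replicate 1 and knockout replicate 5 were the high libraries for *Retn*, while knockout replicate 1 was at 1.76 CPM, so resistin did not share all of the high libraries. *Lep* was the one gene of the 10 that did not pass the filter, with 248 counts in control replicate 1, 70 in knockout replicate 1, 33 or fewer elsewhere, and 0 in 1 control and 4 knockout-labelled libraries. The leptin mean of 1.69 CPM ± 3.13 (SD, n = 8) in control against 0.488 CPM ± 0.924 (SD, n = 12) thus rests mainly on a single control library.

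**Figure D1:**
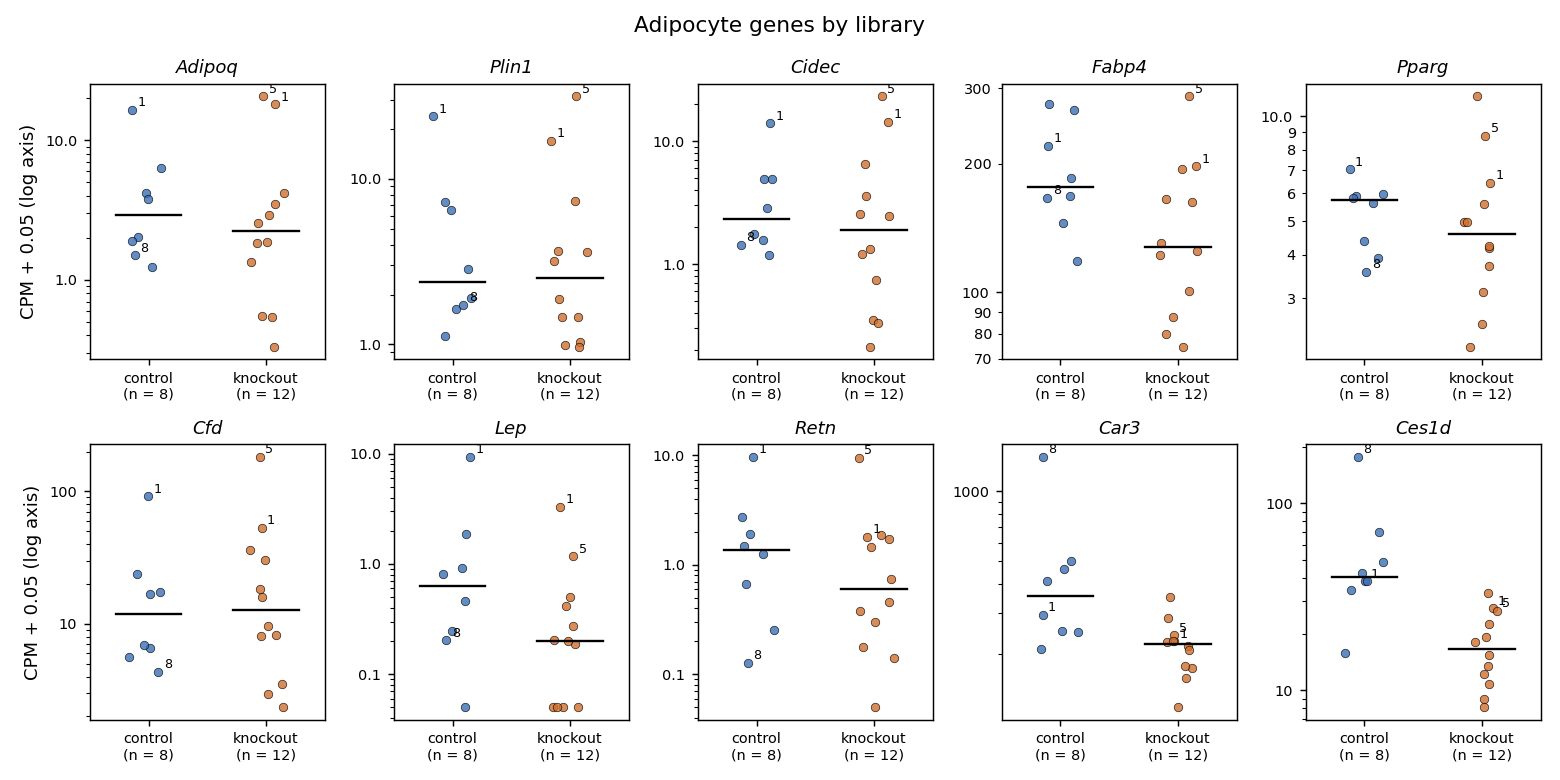
CPM of each gene in each library on a log axis, with 0.05 added so that libraries at 0 can be drawn; points are libraries, black bars are group medians, and replicate numbers mark control 1 and 8 and knockout 1 and 5. The same 3 libraries lead *Adipoq*, *Plin1*, *Cidec* and *Cfd*, whereas control replicate 8 leads *Car3* and *Ces1d* and all 12 knockout-labelled libraries lie below the control median of these 2 genes.

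The genes of fatty acid handling and differentiation were more even. *Fabp4* ran from 119 CPM through a median of 176 to 275 CPM in control and from 74.7 through 128 to 287 CPM in the knockout-labelled libraries, with a log2 fold change of -0.42 (SE 0.23). The highest *Fabp4* value of all was in knockout replicate 5, and 9 of the 12 knockout-labelled libraries lay below the control median. *Pparg* averaged 5.23 CPM ± 1.19 (SD, n = 8) in control against 5.13 CPM ± 2.66 (SD, n = 12) in the other group (log2 fold change -0.03, SE 0.26, but 0.08 with library totals alone), with its highest value, 11.4 CPM, in knockout replicate 4.

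*Ces1d* and *Car3* showed another pattern. *Ces1d* ran from 15.8 CPM through a median of 40.5 to 177 CPM in control and from 8.05 through 16.7 to 33.0 CPM in the knockout-labelled libraries. All 12 of the latter lay below the control median, although control replicate 7, at 15.8 CPM, lay within their range and the groups overlapped. The mean was 58.2 CPM ± 50.5 (SD, n = 8) against 18.0 CPM ± 7.99 (SD, n = 12), or 3.23-fold lower (log2 fold change -1.69, SE 0.34). *Car3* ran from 208 CPM through a median of 353 to 1408 CPM in control and from 117 through 220 to 349 CPM in the other group, and again all 12 lay below the control median while the ranges overlapped. Its mean was 473 CPM ± 393 (SD, n = 8) against 216 CPM ± 60.2 (SD, n = 12), or 2.19-fold lower (log2 fold change -1.13, SE 0.29). Control replicate 8 was the highest library for both, and without it the log2 fold change was -1.19 for *Ces1d* and -0.64 for *Car3*. These 2 were the members past the edgeR threshold among the 9 tested, beside 23.0% of all genes tested, and nothing is read from that count because *Ces1d* was chosen for this difference.

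The TPM scale divides counts by the length of all annotated exons of a gene and then by the library's sum. That length was 4489 bases for *Fabp4*, 4649 for *Plin1* and 922 for *Cfd*. It can exceed the length of the transcripts in use, so the order below depends on it. In control the order of the mean levels was *Car3* at 287 TPM ± 178 (SD, n = 8), *Fabp4* at 82.3 TPM ± 30.9, *Cfd* at 50.6 TPM ± 78.2, *Ces1d* at 42.3 TPM ± 28.1 and *Adipoq* at 7.0 TPM ± 9.01. *Cidec* at 4.58 TPM, *Pparg* at 3.49 TPM, *Retn* at 3.05 TPM, *Plin1* at 2.71 TPM and *Lep* at 1.12 TPM followed. *Cfd*, whose SD was the largest of the 3, did not differ from *Fabp4* or *Ces1d* beyond that spread, while *Fabp4* and *Ces1d* lay further apart than either of their SDs. Neighbours from *Adipoq* down did not differ beyond their spread. The step from *Ces1d* to *Adipoq* exceeded either SD, so that in control *Ces1d* stood well above the genes that define fat cells. In the knockout-labelled libraries *Ces1d* was at 16.95 TPM ± 8.58 (SD, n = 12) and *Adipoq* at 7.53 TPM ± 10.2 (SD, n = 12), which differed by less than the spread of *Adipoq*.

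Whether each gene followed the fat signal was tested within the groups, which the choice of the genes did not use. In an edgeR fit with the group and the fat score as terms, 13 of 15984 genes (0.0813%) had a slope past the adjusted threshold, all positive. Among them were the 3 genes of the score, which had to be there. *Cfd* had a slope of 1.04 log2 units per unit of score (SE 0.06, edgeR adjusted p = 3.02e-10) and *Retn* one of 0.9997 (SE 0.14, edgeR adjusted p = 0.00186), so both rose about in proportion to the core genes. The slopes of *Pparg*, 0.20 (SE 0.08), and *Fabp4*, 0.13 (SE 0.06), were small and did not pass (edgeR adjusted p = 0.999 for each). Both had an unadjusted p under 0.05, as had 7 of the 9 members tested, all but *Ces1d* and *Car3*. The 7 include the 3 genes of the score, which had to be there. The share of all genes at an unadjusted p under 0.05 is not given here, so nothing is read from this count. *Ces1d* had a slope of 0.04 (SE 0.11, edgeR adjusted p = 0.999) and *Car3* one of -0.02 (SE 0.10, edgeR adjusted p = 0.999). At equal fat score the log2 fold change of *Ces1d* was -1.71 (SE 0.35), against -1.69 without the score in the fit, and that of *Car3* was -1.13 (SE 0.29), as before.

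**Figure D2:**
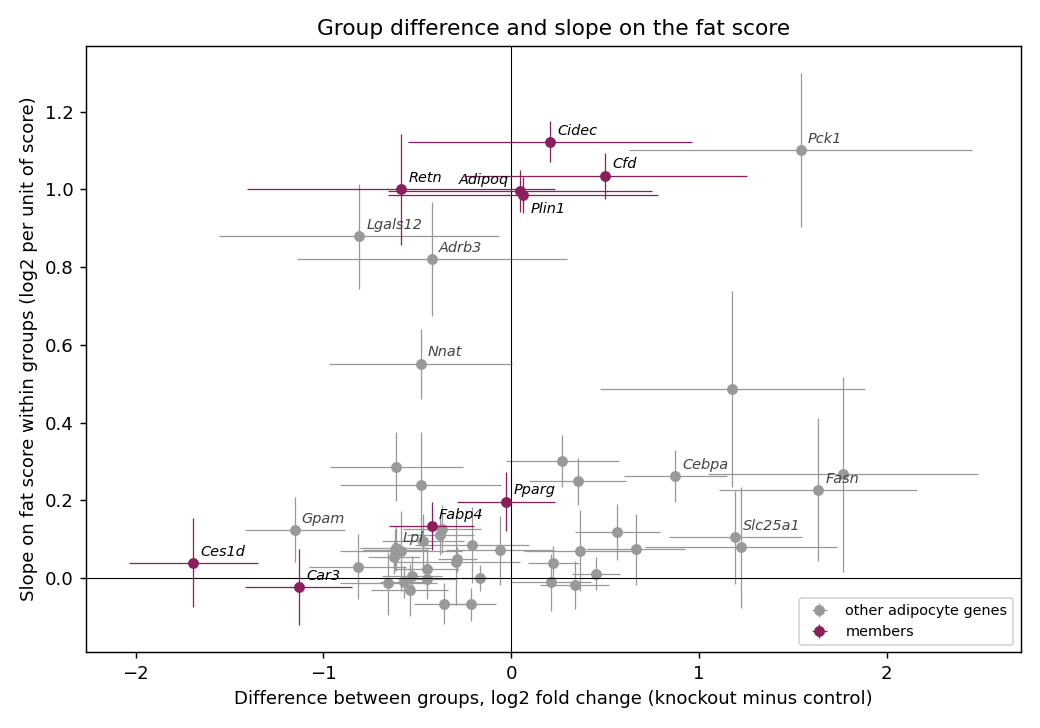
Log2 fold change between the groups (horizontal axis, knockout-labelled minus control) against the slope on the fat score within groups (vertical axis, log2 units per unit of score) for the 9 members tested and 43 other adipocyte genes, with bars of 1 SE from edgeR fits of 20 libraries. *Cfd* and *Retn* sit near a slope of 1 beside the genes of the score, while *Ces1d* and *Car3* sit at a slope near 0 and at the left.

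Correlations within each group gave the same order, over a family of 38 relations of which 10 passed after Benjamini-Hochberg adjustment. Each core gene was set against the mean of the other core genes, with r from 0.93 to 0.99. These core relations passed in both groups and are among the 10, but they concern only the genes that define the score. The rest of the 10 were *Cfd* in both groups, and *Retn* and, with endothelial markers, *Fabp4* in the knockout-labelled libraries. *Cfd* followed the fat score in control (r = 0.94, rho = 0.81, n = 8, exact permutation p = 0.00166, adjusted p = 0.00789) and in the knockout-labelled libraries (r = 0.98, rho = 0.97, n = 12, permutation p = 1e-05, the smallest the resamples can give, adjusted p = 9.5e-05), and r was 0.85 and 0.98 without the 2 libraries farthest from the median score. The rank correlation in control did not pass (adjusted permutation p = 0.0919). *Retn* followed it in the knockout-labelled libraries (r = 0.88, rho = 0.90, n = 12, permutation p = 0.00012, adjusted p = 0.00076) and missed the adjusted threshold in control (r = 0.77, rho = 0.67, n = 8, exact permutation p = 0.0272, adjusted p = 0.0938). In control, r fell to 0.41 without the 2 farthest libraries, so the *Retn* relation there rests on them. *Fabp4* (r = 0.52 and 0.40) and *Pparg* (r = 0.58 and 0.56) were positive in control and in the other group without passing (adjusted permutation p from 0.165 to 0.326). Without the 2 farthest libraries *Fabp4* had r = 0.72 in control and -0.33 in the other group, where its sign thus rests on those libraries, and *Pparg* had 0.65 and 0.34.

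*Ces1d* had no relation with the fat score that passed in either group. In control r was -0.46 (rho = -0.52, n = 8, exact permutation p = 0.240, adjusted p = 0.365), or -0.76 without the 2 farthest libraries. In the knockout-labelled libraries r was 0.51 (rho = 0.48, n = 12, permutation p = 0.0909, adjusted p = 0.216), or 0.21 without the 2 farthest. The signs differ between the groups, and that difference was not tested. *Car3* behaved alike in value, with r = -0.45 in control and 0.45 in the other group (adjusted permutation p = 0.368 and 0.273). A score made from the 4 lists of other adipocyte genes instead of the core genes gave r = 0.75 for *Ces1d* in the knockout-labelled libraries (n = 12, permutation p = 0.00449, not adjusted). The answer for that group thus depends on the genes used. Of the 43 genes tested in these lists, 4 had a slope on the core score past the threshold, and their median slope was 0.07. Knockout replicate 4, highest of its group in *Ces1d*, had 707 CPM of *Fasn* and 1096 CPM of *Scd1*, both in these lists. The part of either in this r was not tested.

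Library by library, the highest fat scores and the highest *Ces1d* levels did not fall together in control, while in the other group 2 of the 3 libraries highest in *Ces1d* were the fat-rich ones. Control replicate 1 had the highest fat score of its group, 4.15, and 38.3 CPM of *Ces1d*, just below the control median. Control replicate 8, the highest for *Ces1d*, and control replicate 4, the next with 70.5 CPM, had fat scores of 0.68 and 0.31, the lowest 2 of the group. Knockout replicates 5 and 1, with fat scores of 4.64 and 4.04, had 26.6 and 27.4 CPM of *Ces1d*, in the upper part of their own group. Without these 3 fat-rich libraries, an alternative chosen after seeing the data, the log2 fold change of *Ces1d* was -1.91 (SE 0.38) and its slope on the fat score -0.12 (SE 0.21).

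Skeletal muscle markers were compared in the same way, since *Car3* is a muscle gene too. Control replicate 8 also had the highest fast muscle score of all 20 libraries, 12.7 on the log2 scale. It held little cartilage RNA, with 29 counts of *Acan* and 22 of *Col2a1*. Control replicate 6 had 34 and 1182, while the highest control values were 4632 and 19446 counts. The part of this low cartilage content in the levels of *Car3* and *Ces1d* was not tested. In control, *Car3* had r = 0.73 with the fast muscle score (rho = 0.48, n = 8, exact permutation p = 0.0488, adjusted p = 0.155) and *Ces1d* r = 0.61 (rho = 0.55, n = 8, exact permutation p = 0.0987, adjusted p = 0.221). These fell to 0.35 and 0.15 without the 2 farthest libraries, so they rest on those libraries. In the knockout-labelled libraries r was 0.09 for *Car3* and -0.01 for *Ces1d* (n = 12, permutation p = 0.788 and 0.988). With the fast muscle list as a covariate, the log2 fold change was -1.18 (SE 0.36) for *Ces1d* and -0.59 (SE 0.28) for *Car3*, no member passed the edgeR threshold, 1 had an unadjusted p under 0.05, and the count over all genes fell to 1184. The 1 was *Ces1d*, which narrowly missed the threshold (edgeR adjusted p = 0.0503). Nothing is read from that value, because *Ces1d* was chosen for this difference. With slow muscle markers, *Car3* had r = -0.12 in control and 0.00 in the other group (adjusted permutation p = 0.907 and 0.989). Of these markers 0 of 7 passed the edgeR test between groups, with 2 at an unadjusted p under 0.05 and 0 by DESeq2.

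**Figure D3:**
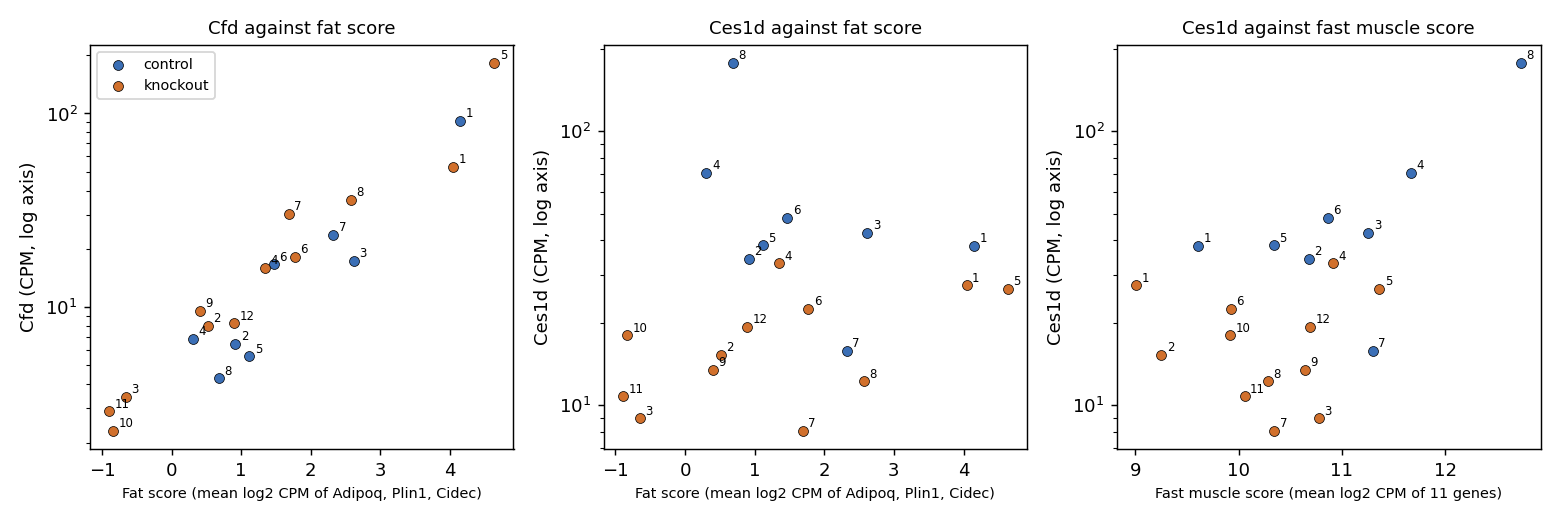
*Cfd* against the fat score, *Ces1d* against the fat score, and *Ces1d* against the fast muscle score, with CPM on log axes, scores in mean log2 CPM, and 1 numbered point per library. *Cfd* climbs with the fat score in both groups, *Ces1d* shows no common trend, and control replicate 8 stands at the far upper right of the muscle panel.

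Markers of other cells that can express single members were also set against them. In the knockout-labelled libraries *Fabp4* had r = 0.71 with the endothelial score (n = 12, permutation p = 0.00978, adjusted p = 0.0372), while rho was 0.61 and did not pass (adjusted p = 0.138). In control that r was 0.50 (n = 8, exact permutation p = 0.205, adjusted p = 0.326). *Cfd* and *Retn* had no relation with neutrophil markers that passed, with r from -0.39 to -0.02 (adjusted permutation p from 0.326 to 0.989). Without the 2 farthest libraries r ran from 0.02 to 0.21, so the negative signs rest on those libraries. *Pparg* had r = 0.66 with osteoclast markers in control and -0.13 in the other group (adjusted permutation p = 0.186 and 0.849). *Ces1d* had r = -0.68 with macrophage markers in control and 0.23 in the other group (adjusted permutation p = 0.173 and 0.598), or -0.47 and 0.91 without the 2 farthest libraries, so 2 libraries set the second value. With osteoclast markers its r was -0.61 in control (rho = -0.76, adjusted permutation p = 0.224 for r and 0.138 for rho), or -0.86 without the 2 farthest, and 0.05 in the other group (adjusted permutation p = 0.989), or 0.37 without them. Liver, another known site of *Ces1d*, left little trace, since none of the 6 hepatocyte markers passed the filter and their summed level was at most 7.47 CPM.

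The genes most like the fat score and most like *Ces1d* were ranked by Pearson's r over the 20 libraries after centring on the group means, as a description. Nearest to the fat score were *Cfd* (r = 0.97), *Tmem45b* (0.94), *Cyp2e1* (0.90), *Mrap* (0.86), *Pck1* (0.85), *Lgals12* (0.84), *Retn* (0.84), *Adrb3* (0.81), *Nnat* (0.78) and *Ucp1* (0.77). Several of these are familiar fat cell genes, such as *Mrap*, the melanocortin receptor accessory protein, *Adrb3*, the beta-3 adrenergic receptor, and *Ucp1*, the uncoupling protein of brown fat. *Pparg* stood at rank 84 of 15981 genes (r = 0.56), *Fabp4* at rank 465 (r = 0.43), *Ces1d* at rank 5864 (r = 0.11) and *Car3* at rank 8543 (r = 0.00). Nearest to *Ces1d* were *Lhpp* (r = 0.81), *9430038I01Rik*, *Srek1ip1*, *Nfe2l2*, *Zfp706*, *Hdac3*, *Lsm12*, *Vbp1*, *Ing2* and *Sub1* (0.76), none of which belongs to the adipocyte lists. *Car3* was the nearest member to *Ces1d*, at rank 89 of 15983 with r = 0.66, while *Adipoq*, *Plin1* and *Cidec* stood at ranks 5558, 6680 and 5369. All points share library preparation, depth and tissue composition.

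Promoter sequence was examined for the members that moved together. RefSeq start sites (GRCm38.p6) gave the 250 upstream bases of 7 of the 10 genes. Missing were *Fabp4*, *Car3* and *Ces1d*. The letters ATTGC, searched on both strands and the half-site of CCAAT/enhancer binding proteins, occurred in 4 of the 7 windows, those of *Adipoq*, *Cidec*, *Plin1* and *Retn*, and in 23.1% of 32851 promoters of the same length. The palindrome TTGCGCAA of the same factors occurred in *Lep* and in 0.164% of promoters. The nuclear receptor half-site AGGTCA, on either strand, occurred in *Pparg* and in 14.0% of promoters, and the exact direct repeat of a PPAR response element, those letters joined by 1 free base, in none of the 7 and in 0.0335% of promoters. A match is a description of letters only. The 230 bases before the start of 4 genes with a match are shown, 5′ to 3′ on the strand of the gene, with the half-site (as its reverse complement in *Retn*) or the palindrome in capitals, at chr16:23146306-23146535 (plus strand) for *Adipoq*, chr6:113435761-113435990 (minus) for *Cidec*, chr8:3655540-3655769 (plus) for *Retn* and chr6:29059991-29060220 (plus) for *Lep*.
Adipoq: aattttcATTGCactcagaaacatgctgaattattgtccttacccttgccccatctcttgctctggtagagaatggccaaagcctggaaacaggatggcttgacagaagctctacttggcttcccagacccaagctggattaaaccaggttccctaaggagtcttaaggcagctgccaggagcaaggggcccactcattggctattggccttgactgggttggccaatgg
Cidec: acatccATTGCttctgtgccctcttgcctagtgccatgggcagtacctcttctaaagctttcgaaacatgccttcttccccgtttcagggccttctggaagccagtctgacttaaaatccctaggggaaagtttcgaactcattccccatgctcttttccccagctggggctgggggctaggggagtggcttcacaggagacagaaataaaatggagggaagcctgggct
Retn: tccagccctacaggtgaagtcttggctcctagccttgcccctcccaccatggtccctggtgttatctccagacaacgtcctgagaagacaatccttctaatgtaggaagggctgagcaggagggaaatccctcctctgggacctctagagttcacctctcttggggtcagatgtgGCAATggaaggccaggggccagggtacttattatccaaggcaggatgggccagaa
Lep: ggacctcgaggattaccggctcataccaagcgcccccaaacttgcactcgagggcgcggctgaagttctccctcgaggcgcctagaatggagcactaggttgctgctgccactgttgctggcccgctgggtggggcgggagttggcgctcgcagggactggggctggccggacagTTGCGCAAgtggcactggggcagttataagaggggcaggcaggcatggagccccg
The match begins 223 bases before the start in *Adipoq*, 224 in *Cidec*, and 55 in both *Retn* and *Lep*. Of these, *Adipoq* and *Cidec* are genes of the fat score and had to follow it. *Retn* followed it in the slope fit, but its correlation passed only in the knockout-labelled libraries. *Cfd*, whose window holds none of the searched letters, followed the score too. No link between the letters and the score was tested.

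*Ces1d* lies on chromosome 8, at 93166068 to 93197838 on the minus strand (GRCm38), within a row of related carboxylesterase genes, so reads could be shared. Of its relatives only *Ces1e* passed the filter, with 1.23 CPM ± 0.296 (SD, n = 8) in control against 0.890 CPM ± 0.843 (SD, n = 12) in the knockout-labelled libraries, a log2 difference of -0.45 (SE 0.46, edgeR adjusted p = 0.493). *Ces1b* had no count, and *Ces1a*, *Ces1c*, *Ces1f*, *Ces1g* and *Ces1h* had at most 63 counts in any library. Of 1955 stretches of 50 bases in the *Ces1d* exons, 25 (1.28%) occurred also in *Ces1b*, *Ces1f* or *Ces1g*, and of 1905 stretches of 100 bases none did. No exon base of any of the 10 genes overlaps an exon of another gene.

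The wider adipocyte programme, 45 further genes in 4 lists of which 43 passed the filter, had 12 genes past the threshold between the groups, 4 higher and 8 lower, with a median log2 fold change of -0.29, beside 23.0% of genes and a median of -0.02 over all genes tested. These genes were no members, but the lists were written with earlier results of these data known, so their calls are not independent evidence of a direction. The counts of single lists between the groups, given below, stand beside the same 23.0%, which covers both directions. No list was tested against that share. Without control replicate 1 the count was 19, and without control replicate 8 it was 8. With the fast muscle list as a covariate 3 remained, *Gpam*, *Fitm2* and *Acsl1*. The count over all genes moved too, from 2551 to 4181 when each library was left out and to 1184 with that covariate. No shift of the adipocyte count was tested against that of all genes. *Slc2a4*, *Lpl* and *Cd36*, which muscle is known to express as well, stood at 335, 209 and 202 TPM in control, against 7.0 TPM for *Adipoq*.

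Genes of fat synthesis had calls in both directions, as had all genes tested. *Fasn*, fatty acid synthase, was higher, at 38.1 CPM ± 17.2 (SD, n = 8) in control against 118 CPM ± 186 (SD, n = 12), with a log2 difference of 1.64 (SE 0.53, edgeR adjusted p = 0.0300, above the control median in 11 of 12 libraries). Knockout replicate 4 alone reached 707 CPM, and without it the log2 fold change was 0.77 (edgeR adjusted p = 0.0315). The call was lost without control replicate 4, 6 or 8. *Slc25a1*, the mitochondrial citrate carrier, was higher by 1.19 (SE 0.35, edgeR adjusted p = 0.0200, 11 of 12). *Gpam*, which begins triacylglycerol synthesis, was lower, at 82.2 CPM ± 32.7 (SD, n = 8) in control against 37.0 CPM ± 14.6 (SD, n = 12), with a log2 difference of -1.15 (SE 0.27, edgeR adjusted p = 0.00538, 12 of 12). *Gpd1*, which supplies glycerol phosphate, had -0.82 (SE 0.26, edgeR adjusted p = 0.0268, 11 of 12), but -0.46 and no call without control replicate 8. *Acsl1*, which activates fatty acids, had -0.62 (SE 0.14, edgeR adjusted p = 0.00428, 12 of 12). Over the list of 17 genes, 2 were higher and 4 lower.

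Uptake genes were lower where they passed. *Lpl*, lipoprotein lipase, had a log2 difference of -0.62 (SE 0.17, edgeR adjusted p = 0.0145, 11 of 12), and *Cd36*, a fatty acid transporter, one of -0.62 (SE 0.19, edgeR adjusted p = 0.0239, 10 of 12), lost without control replicate 6 or 7. *Slc2a4*, the insulin-sensitive glucose transporter, had -0.45 (SE 0.16, edgeR adjusted p = 0.0452, 10 of 12) and kept its call in 5 of 20 fits that each left out 1 library. It was also lost when libraries were scaled by their totals alone (edgeR adjusted p = 0.0612). The other 6 genes of this list did not pass.

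Lipid droplet genes gave 1 call each way among 9, beside calls for 23.0% of all genes tested, so the count does not set this list apart. *Fitm2*, which acts in droplet formation, had a log2 difference of -0.57 (SE 0.12, edgeR adjusted p = 0.00387, 12 of 12), and *Bscl2*, the seipin gene, one of 0.45 (SE 0.13, edgeR adjusted p = 0.0156, 11 of 12). The lipases *Pnpla2* and *Lipe* had values of -0.45 and -0.38 that did not pass (edgeR adjusted p = 0.0651 and 0.131). Among the regulators and markers, *Cebpa*, the partner of PPARγ in fat cell differentiation, was higher by 0.88 (SE 0.27, edgeR adjusted p = 0.0259, 11 of 12), a call lost without control replicate 8, and it was the only one of 8 tested to pass.

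On the fat score, 4 of these 43 genes had a slope past the threshold, beside 0.0813% of all genes. They were *Lgals12*, a lipid droplet galectin (0.88, SE 0.13, edgeR adjusted p = 0.00408), *Nnat* (0.55, SE 0.09, edgeR adjusted p = 0.00800), *Pck1*, which serves glycerol formation in fat (1.10, SE 0.20, edgeR adjusted p = 0.0219), and *Adrb3* (0.82, SE 0.15, edgeR adjusted p = 0.0219). None of the 4 passed between the groups, where 12 of the 43 did. Their SEs there ran from 0.49 for *Nnat* to 0.91 for *Pck1*, so nothing is read from this. The count on the fat score was 0 without knockout replicate 5 and 1 without control replicate 1. It was 2 without knockout replicate 10, whose fat score of -0.84 was among the lowest. That count thus rests on single libraries at either end of the score.

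Brown and beige fat genes, progenitor genes and adipokine receptors completed the lists. *Ucp1* had the steepest slope on the fat score among the genes that passed, 1.80 (SE 0.29, edgeR adjusted p = 0.00756), at levels of 1.08 CPM ± 2.03 (SD, n = 8) and 3.31 CPM ± 7.37 (SD, n = 12). Knockout replicate 1 held 561 of its 958 counts. Control replicate 1, the control highest in fat score, had 1 count, so *Ucp1* did not follow the score in every library. Between the groups *Prdm16* had a log2 difference of -0.56 (SE 0.17, edgeR adjusted p = 0.0221, 12 of 12) and *Ppargc1a* one of -0.66 (SE 0.22, edgeR adjusted p = 0.0327, 11 of 12), 2 of 6 tested. Both calls were lost when libraries were scaled by their totals alone (edgeR adjusted p = 0.110 and 0.0806). Of 10 genes of adipocyte progenitors, *Pdgfra* was higher by 0.80 (SE 0.22, edgeR adjusted p = 0.0143, 10 of 12) and *Pdgfrb* by 0.54 (SE 0.16, edgeR adjusted p = 0.0178, 11 of 12), both also genes of other mesenchymal cells. These 2 calls among 10 stand beside 23.0% of all genes tested, so the count does not set the progenitor list apart. The receptors of adiponectin and leptin gave 0 calls among 4 by edgeR, 1 at an unadjusted p under 0.05 and 0 by DESeq2, with log2 fold changes of -0.36 for *Adipor1*, -0.11 for *Adipor2*, 0.11 for *Cdh13* and 0.36 for *Lepr*.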

How the data were processed

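Reads were paired-end (NovaSeq). The authors trimmed them, mapped them to mm10 and counted them per gene with featureCounts, and the deposited values are raw counts. Aligner, annotation release and use of strand are not given in the sources used here. Identifiers were matched to GENCODE M21 (54495 of 54532), and groups come from the sample titles. Replicates are separate samples, and p-values measure only the spread between these samples. No 2 libraries were duplicates (smallest chi-square per degree of freedom, 32.9).

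Genes were filtered with filterByExpr, scaled by TMM and tested with edgeR 4.0.16 (quasi-likelihood F test, two-sided, Benjamini-Hochberg over all genes tested, threshold 0.05) in R 4.3.3. DESeq2 1.42.0, other scalings and filters, muscle and Y chromosome lists as covariates, a replicate block, other fat scores and the omission of single libraries were alternatives. SEs derive from the F statistic. Log2 CPM used a prior count of 2. Correlations used all pairings in control and 100000 resamples in the knockout-labelled libraries, two-sided, and *Lep* was left out, which made 38 relations of 40 planned. The fit was tested on simulated data. The members and lists were chosen with earlier results of these data known. Named are the 10 members, the measured *Ces1* relatives and adipokine receptors, up to 3 genes past the threshold per direction and fat list, the 10 genes most like *Ces1d* and the 10 most like the fat score. *Pnpla2* and *Lipe* were named after their values were seen. Counting error alone is covered by the 3-count floor.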

Additional observations from a re-analysis of the deposited data

Results flagged for a closer look

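Within the 8 control libraries, *Car3* in control replicate 8 stood apart from the rest on the log2 scale, with a gap to the next library of 0.541 of the whole range, above the 95% critical value of Dixon's test for 8 samples. It was the only flag among 20 such tests of the ends of 10 measures in control, and among 20 tests 1 flag can arise by chance. The knockout-labelled libraries, more than 10, were not tested in this way.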

How the results depend on the processing

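The difference of *Ces1d* kept its direction in all 10 alternatives, from -1.91 to -1.18, and when each library was left out, from -1.83 to -1.19, the last without control replicate 8. At equal fat score it ran from -1.94 to -1.12. The slope of *Ces1d* on the fat score ran from -0.12 to 0.25 and did not pass in any alternative. Scaling by library totals alone turned no member's call.

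With the fast muscle list as a covariate, 1184 genes, 0 members and 3 of the other adipocyte genes passed (edgeR, 1 member, *Ces1d*, and 18 others at an unadjusted p under 0.05). Without the 3 libraries highest in fat score, an alternative chosen after seeing the data, 21 of the other adipocyte genes passed between the groups and 0 on the fat score, where fewer samples and a narrower score were left. When each library was left out, 8 to 19 of the other adipocyte genes passed between the groups, beside 2551 to 4181 of all genes. On the fat score 0 to 5 of them passed. The shares over all genes are not given for the 21 and for the 18 at an unadjusted p, so nothing is read from those 2 counts. The correlation of *Ces1d* with the fat score in the knockout-labelled libraries was 0.75 with a score of the other adipocyte lists (permutation p = 0.00449) and ran from 0.41 to 0.63 when each library was left out, passing unadjusted without knockout replicate 7 (0.63, permutation p = 0.0414). The cause of these shifts was not tested.

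Control and knockout-labelled samples share replicate numbers 1 to 8, but same-numbered libraries did not deviate together (correlations from -0.29 to 0.24). With the replicate number as a block in these 16 libraries, 1786 genes passed, against 3280 without the block, 1 member passed, *Ces1d* differed by -1.38, and 0 other adipocyte genes passed on the fat score. *Lep*, tested in 3 settings with another filter or test, had log2 fold changes from -1.80 to -1.78.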

Other observations

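*Fasn* was not the only lipid synthesis gene raised in knockout replicate 4. That library had 1096 CPM of *Scd1*, a fatty acid desaturase, where the other 11 knockout-labelled libraries had 32.1 to 123 CPM, 105 CPM of *Elovl6*, where they had 1.87 to 16.6 CPM, and 82.7 CPM of *Elovl3*, where they had 0 to 2.24 CPM. Both *Elovl* genes encode fatty acid elongases. Its fat score was 1.35, in the middle of its group, and its 33.0 CPM of *Ces1d* and 11.4 CPM of *Pparg* were the highest of the knockout-labelled libraries. These genes were named after their values were seen, and the cause was not tested.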
